A study of Mus musculus with 11 samples.

Results

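Cdkn1a and 9 other growth arrest genes were followed in peritoneal PMNs (polymorphonuclear neutrophils) of FOXO3 KO and WT mice. The members were listed by name, as Cdkn1a, Cdkn1b, Cdkn1c, Cdkn2c, Cdkn2d, Ccng2, Gadd45a, Gadd45b, Btg1 and Btg2, and each was 1 of the 54164 rows of the deposited expression table. All 10 were found, and 9 had a mean of at least 1 TPM (a level scaled by transcript length and by the total of the library) and entered the test of 12195 genes. The study asked which transcripts of PMNs depend on FOXO3. The FOXO3 KO group held 6 C57BL/6 mice homozygous for the knock-out, and the WT group held 5 mice of the same strain, with littermates genotyped to find them. All mice were 6 to 8 weeks old, of either sex, and had received 2 intraperitoneal injections of 1 mL casein, with PMNs taken 3 h after the second and purified on a density gradient. Every cell of a FOXO3 KO mouse carries the knock-out, so the values are not those of a loss limited to PMNs. Each library was made from the total RNA of 1 mouse.

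Growth arrest proteins stop a cell from entering or completing the cell cycle. The CIP/KIP inhibitors bind cyclin-dependent kinases together with their cyclins, the INK4 inhibitors keep the D-type cyclins from their kinases, and GADD45 and BTG proteins act on stress kinases, DNA repair and messenger RNA decay. FOXO transcription factors, which are held in the cytoplasm by growth factor signalling, are known to switch on several of these genes, and p53 switches on Cdkn1a after DNA damage. PMNs leave the bone marrow as cells that no longer divide.

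The regulatory sequence near the start of 3 members is shown because it holds a match to a motif of a factor known to act on this group. RefSeq start sites (GRCm38.p6) gave 11 windows for 9 members, each of 250 bases before the start and 50 bases after it. Both strands were searched for the FOXO core motif GTAAACA, for the cyclic AMP response element TGACGTCA and for the p53 response element, taken as paired decamers with up to 13 bases between them and without mismatch. Capitals mark the match in the lines that follow, with the bases between the decamers included for the p53 response element.

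Cdkn1a, upstream start, chr17:29090729-29091028, plus strand: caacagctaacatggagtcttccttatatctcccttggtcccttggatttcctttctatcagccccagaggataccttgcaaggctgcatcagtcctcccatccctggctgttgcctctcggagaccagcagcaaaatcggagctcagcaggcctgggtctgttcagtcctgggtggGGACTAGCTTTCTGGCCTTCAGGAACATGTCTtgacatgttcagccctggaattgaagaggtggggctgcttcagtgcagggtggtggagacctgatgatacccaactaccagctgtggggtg
Btg1, chr10:96616751-96617050, plus strand: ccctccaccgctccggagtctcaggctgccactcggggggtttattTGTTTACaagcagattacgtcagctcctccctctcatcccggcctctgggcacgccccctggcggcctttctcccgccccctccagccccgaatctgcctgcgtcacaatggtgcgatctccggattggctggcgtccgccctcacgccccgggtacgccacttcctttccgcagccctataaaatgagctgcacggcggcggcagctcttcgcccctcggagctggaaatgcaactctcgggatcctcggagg
Btg2, chr1:134079106-134079405, minus strand: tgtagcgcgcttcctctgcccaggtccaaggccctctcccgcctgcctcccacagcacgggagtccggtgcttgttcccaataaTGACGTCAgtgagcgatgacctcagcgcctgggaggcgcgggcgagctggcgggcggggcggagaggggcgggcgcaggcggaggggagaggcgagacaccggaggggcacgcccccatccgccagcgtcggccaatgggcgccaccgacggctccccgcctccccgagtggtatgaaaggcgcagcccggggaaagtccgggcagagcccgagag

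The match in Cdkn1a was to the p53 response element as searched here and began 73 bases before the upstream start. It was of a kind held by 0.0731% of the 32851 mouse windows of this length. The bases that follow it, tgacatgttc, miss a decamer only at their first letter and were not marked. The match in Btg1 was to the FOXO motif on the other strand, 204 bases before the start, and 3.65% of all windows held 1. The match in Btg2 was to the cyclic AMP response element, 166 bases before the start, which 1.79% of windows held. The second Cdkn1a window, chr17:29093519-29093818, had none of the 3 motifs, nor did the windows of the other 6 members. A match is a run of letters in the reference and no measurement of binding.

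Foxo3, the knocked-out gene (chr10:42181841-42276755), was read first as a check of the labels. It had 0.844, 1.68, 2.00, 2.18, 3.68 and 4.27 TPM in FOXO3 KO libraries, against 7.61, 7.63, 9.30, 10.3 and 11.7 TPM in WT libraries. The groups did not overlap, and the knocked-out gene kept a low level of reads in the FOXO3 KO libraries. Its log2 fold change was -1.65 (SE 0.26), with an adjusted p of 0.49 in limma over all genes tested, so that even the knocked-out gene did not pass the adjustment. No gene of the 12195 passed FDR < 0.05, and 257 had an unadjusted limma p below 0.05. The paper, by contrast, reports genes increased and genes decreased in FOXO3 KO PMNs at FDR < 0.05. Its calls came from the authors' own comparison and not from limma on TPM, and the reason for the difference was not tested. The table names 6 libraries by 1 digit (FOXO3 KO 1 to 3 and WT 1 to 3) and 5 by 2 digits (FOXO3 KO 05, 06 and 09, WT 03 and 08), and the sources do not say what the numbering stands for. The summed TPM of the PMN markers was 102200 to 183000 in FOXO3 KO libraries and 124600 to 254400 in WT libraries, so all libraries held abundant PMN transcripts. All 7 macrophage markers were found in the table, and 1 of them stayed under 1 TPM in every library. Summed B cell markers were 1097 to 4959 TPM in the libraries numbered by 2 digits and 67.6 to 537 TPM in those numbered by 1 digit. The male transcript Ddx3y had 18.0 to 42.9 TPM in FOXO3 KO 3, FOXO3 KO 09, WT 03 and WT 08 and at most 0.264 TPM in the other 7 libraries, so sex was not balanced within the numbering. Of the libraries numbered by 2 digits, both WT ones were male and FOXO3 KO 05 and 06 were not, so sex was not balanced between the genotypes there. FOXO3 KO 3 also had 4.29 TPM of the female transcript Xist, against 0.0060 to 0.11 TPM in FOXO3 KO 09, WT 03 and WT 08, and the reason was not tested. FOXO3 KO 09 stood apart with 5640 TPM of summed erythroid markers, against 1.89 to 259.8 TPM in the other 10 libraries.

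In mean level the members spanned a wide range. Gadd45b (709.9 ± 153 TPM, SD, n = 11), Gadd45a (528 ± 182 TPM) and Btg1 (508 ± 150 TPM) were at percentiles 98.4, 97.9 and 97.8 of the mean levels of the genes tested. Btg2 (93.9 ± 31.1 TPM), Cdkn2d (86.9 ± 26.2 TPM), Cdkn1a (74.7 ± 23.8 TPM) and Ccng2 (73.0 ± 31.6 TPM) followed, at percentiles 87.8 to 90.1. Cdkn1b (19.0 ± 3.56 TPM), Cdkn2c (1.32 ± 0.593 TPM) and Cdkn1c (0.28 ± 0.165 TPM) were the lowest. Within single libraries, Btg1 was above Btg2, Ccng2 above Cdkn1b, Cdkn1b above Cdkn2c and Cdkn2c above Cdkn1c in 11 of 11. Neighbours that changed places between libraries were Gadd45a and Btg1 (5 of 11 with Gadd45a higher), Btg2 and Cdkn2d (6 of 11 with Btg2 higher), Cdkn2d and Cdkn1a (6 of 11 with Cdkn2d higher) and Cdkn1a and Ccng2 (5 of 11 with Cdkn1a higher). Gadd45b was above Gadd45a in 6 of 6 FOXO3 KO libraries and in 3 of 5 WT libraries.

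**Figure D1:**
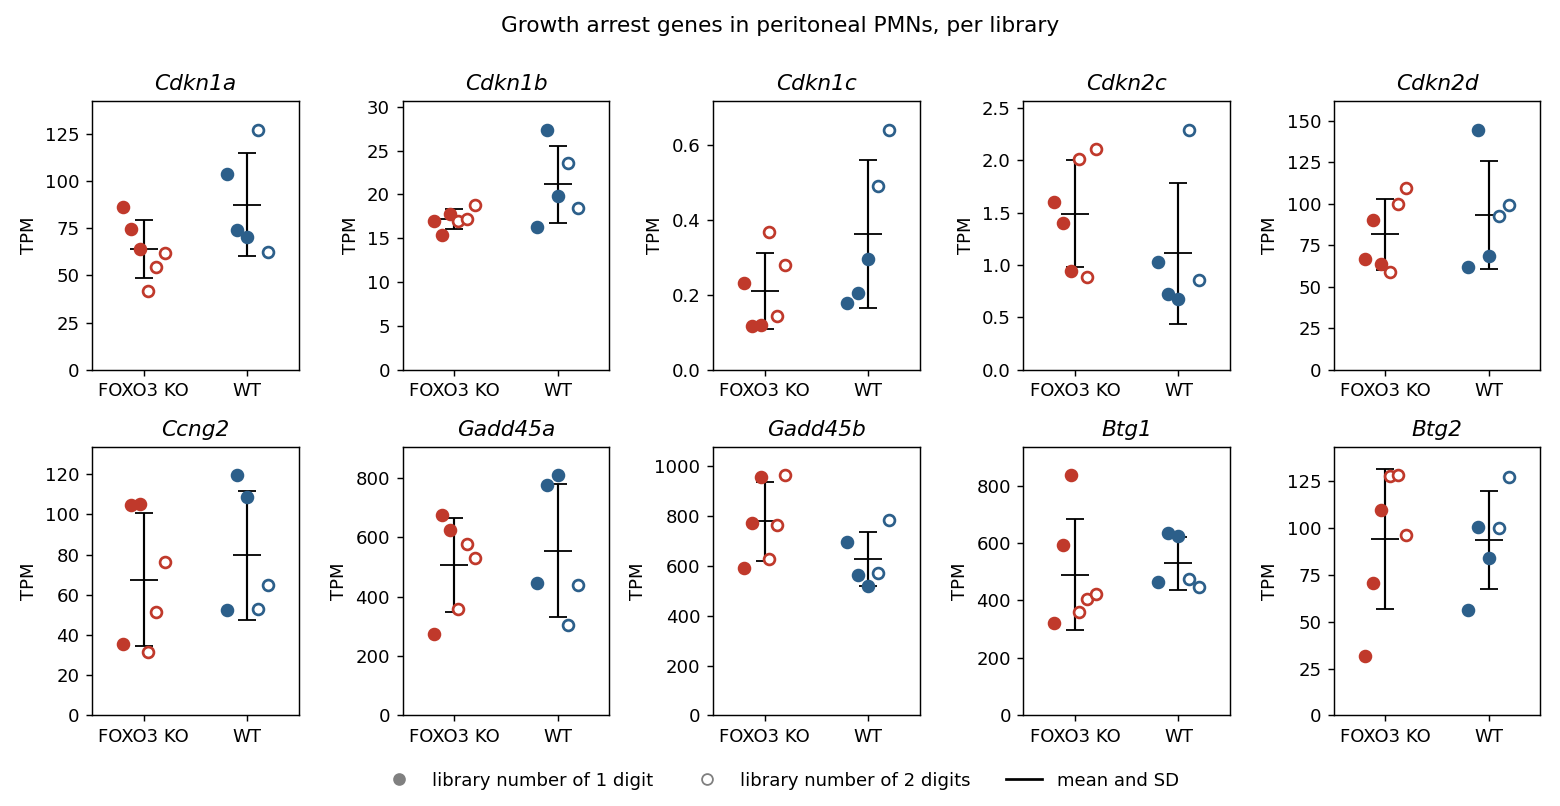
TPM of each of the 10 growth arrest genes in 6 FOXO3 KO libraries (red, left) and 5 WT libraries (blue, right), with filled points for libraries numbered by 1 digit, open points for those numbered by 2 digits, and the mean with its SD in black; each panel has its own linear axis from 0. The groups overlap in all 10 panels, and Cdkn1b is packed between 15.3 and 18.8 TPM in FOXO3 KO libraries while WT libraries reach 27.4 TPM.

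Between the genotypes, 7 of the 9 members tested had a negative log2 fold change and 2, Cdkn2c and Gadd45b, a positive one, and none of these differences passed the test. For Btg2 the sign held on the log scale only, since its mean was 94.1 TPM in FOXO3 KO and 93.6 TPM in WT PMNs. The members called, by FDR < 0.05 and a log2 fold change beyond 0.5 in size, numbered 0 of 9, against 0% of all genes. At an unadjusted limma p below 0.05 they were 0 of 9 in either direction, against 0.549% of all genes lower and 1.56% higher in FOXO3 KO PMNs. The ranges of the groups overlapped for all 9, and 0.131% of all genes had ranges apart. The median log2 fold change of the 9 members was -0.17, whereas the median of all genes tested was 0.11 and 31.4% of them were negative. Relative to that shift, Cdkn1a stood at -0.54, Ccng2 at -0.41, Cdkn1b at -0.38, Gadd45b at 0.19 and Cdkn2c at 0.15. Scaling by quantiles took the median of all genes to 0.0095 and kept the sign of all 9, whereas the mean level of PMN markers as a covariate turned Cdkn2d, Ccng2, Gadd45a, Btg1 and Btg2 to positive values. The members were chosen with earlier results of these libraries known, so their shared sign is a description.

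**Figure D2:**
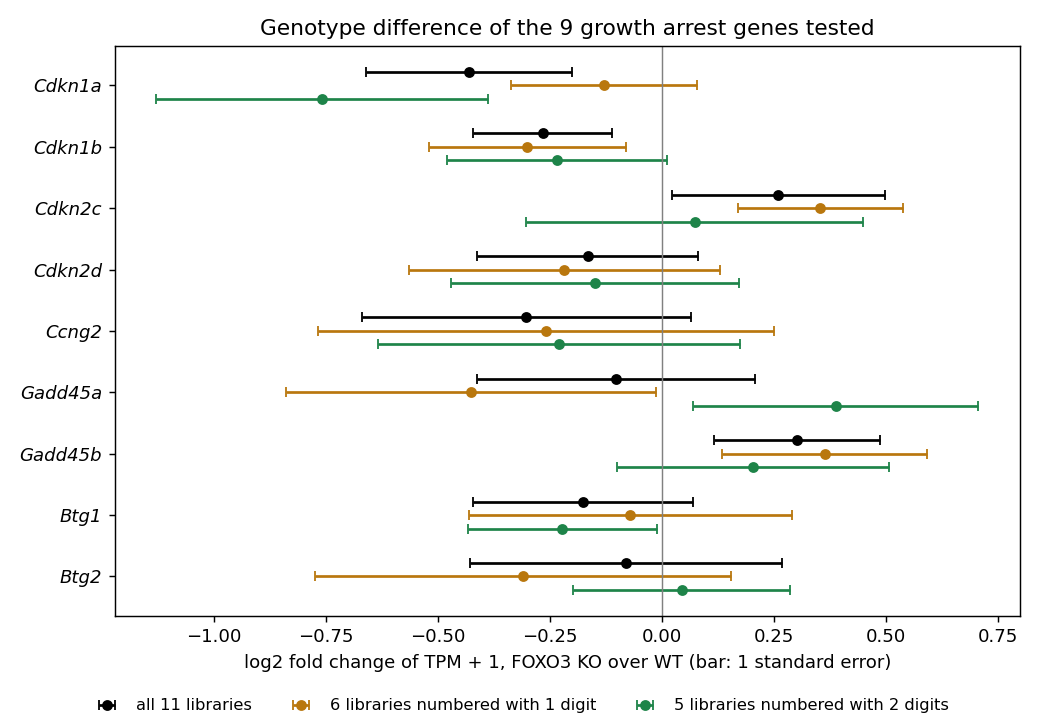
Log2 fold change of TPM + 1 (FOXO3 KO over WT) with 1 standard error for the 9 members tested, from all 11 libraries (black), from the 6 libraries numbered by 1 digit (brown) and from the 5 numbered by 2 digits (green). Cdkn1a is at -0.43 over all libraries, with -0.13 and -0.76 in the parts, and Gadd45a lies on opposite sides of 0 in the parts, at -0.43 and 0.39.

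Cdkn1a (chr17:29090976-29100727) encodes p21, the CIP/KIP inhibitor that p53 and FOXO factors are known to induce. The study singled it out from these libraries, so its difference is given as a description. The paper lists it as lower in FOXO3 KO PMNs and also reports qPCR of it, which these values do not include. Cdkn1a had 42.0, 54.7, 61.9, 64.1, 74.5 and 86.3 TPM in FOXO3 KO libraries, against 62.2, 70.5, 73.9, 103.9 and 127 TPM in WT libraries. The 3 lowest libraries were FOXO3 KO 05, 06 and 09, the 2 highest were WT 03 and WT 1, and the groups overlapped between 62.2 and 86.3 TPM. Cdkn1a averaged 63.9 ± 15.4 TPM (SD, n = 6) in FOXO3 KO and 87.5 ± 27.2 TPM (SD, n = 5) in WT PMNs, a log2 fold change of -0.43 (SE 0.23) with an adjusted p of 0.99 in limma. The exact permutation test over libraries gave p = 0.12, two-sided. Among libraries numbered by 1 digit the log2 fold change was -0.13 (SE 0.21, adjusted p = 0.79 in limma), and among those numbered by 2 digits it was -0.76 (SE 0.37, adjusted p = 1.00). The test of the difference between these values gave -0.63 (SE 0.43, adjusted p = 1.00), and it was -1.14 without WT 08 and -0.12 without WT 03 (adjusted p = 0.33 and 1.00). For all genes, the interaction called 0% at FDR < 0.05, with 254 genes at an unadjusted p below 0.05. Without WT 03 the log2 fold change of Cdkn1a was -0.28, and without WT 08 it was -0.54 (adjusted p = 0.99), with an unadjusted p under 0.05 in the second fit.

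The level of Cdkn1a followed that of macrophage transcripts from library to library. Its 3 highest libraries, FOXO3 KO 1 (86.3 TPM), WT 1 (103.9 TPM) and WT 03 (127 TPM), were also the 3 highest for Adgre1, which encodes the macrophage surface protein F4/80, with 232, 206 and 267 TPM. They were the 3 highest for the sum of the 7 macrophage markers as well, at 739 TPM in FOXO3 KO 1, 866 TPM in WT 1 and 973 TPM in WT 03. The lowest marker sums were those of FOXO3 KO 06 (171 TPM), FOXO3 KO 05 (216 TPM) and WT 08 (239 TPM), where Cdkn1a had 54.7, 42.0 and 62.2 TPM. The sum ranged between 171 and 739 TPM in FOXO3 KO libraries, with a median of 466, and between 239 and 973 TPM in WT libraries, with a median of 576, and all 6 macrophage markers tested had a negative log2 fold change (median -0.52, 0 passing FDR < 0.05). With the mean marker level as a covariate, the log2 fold change of Cdkn1a was -0.23 (SE 0.15, adjusted p = 0.49 in limma). The median of all genes was 0.21 in that fit, so relative to it Cdkn1a stood at -0.44, against -0.54 with no covariate. In whole samples such as these, fewer cells of a type and less RNA per cell cannot be told apart, and the part of macrophages in the Cdkn1a level was not tested on separated cells.

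**Figure D3:**
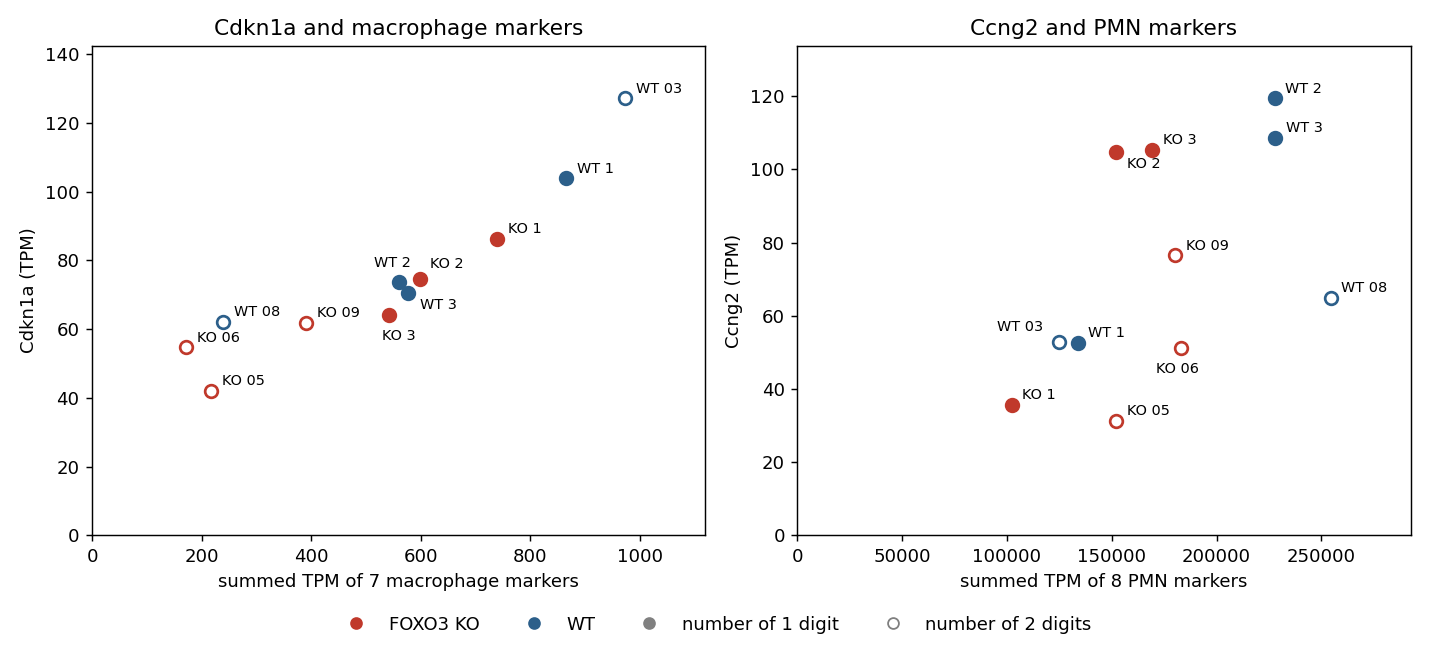
Left, Cdkn1a (TPM) against the summed TPM of 7 macrophage markers, and right, Ccng2 (TPM) against the summed TPM of 8 PMN markers, with 1 point per library in red for FOXO3 KO and blue for WT, filled for 1-digit and open for 2-digit numbers. Cdkn1a is highest in WT 03, WT 1 and FOXO3 KO 1, where the marker sum is also highest, whereas WT 08, with the largest PMN marker sum (254400 TPM), has 64.9 TPM of Ccng2 and is not among the 4 libraries highest in that gene.

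The genes whose level was most like that of Cdkn1a over the 11 libraries, by Pearson's r of log2(TPM + 1), were Aif1 (r = 0.96, Spearman's rho 0.94), Tmem171 (r = 0.95, rho 0.85), Kifc3 (r = 0.95, rho 0.91), Ms4a7 (r = 0.92, rho 0.80) and Dhrs3 (r = 0.92, rho 0.97). Aif1 and Ms4a7 are known as transcripts of macrophages and related cells. All 11 points came from libraries of 1 tissue and share their scaling, so these values describe likeness and carry no p. Aif1 had 5.84 to 33.4 TPM in FOXO3 KO libraries, against 16.9 to 71.7 TPM in WT libraries, with the highest values in FOXO3 KO 1, WT 1 and WT 03, the libraries highest in Cdkn1a.

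The other CIP/KIP members differed in level and in spread. Cdkn1b (chr6:134920401-134925513), which encodes p27, an inhibitor of cyclin E with CDK2, had 15.3, 16.9, 16.9, 17.2, 17.8 and 18.8 TPM in FOXO3 KO libraries, against 16.3, 18.5, 19.8, 23.6 and 27.4 TPM in WT libraries. All 6 FOXO3 KO libraries lay below the WT median of 19.8 TPM, yet WT 1 and WT 08 lay within their range. The coefficient of variation was 6.68% in FOXO3 KO and 20.7% in WT libraries, and this difference in spread was not tested. The log2 fold change of Cdkn1b was -0.27 (SE 0.15), with an adjusted p of 0.99 in limma and an exact permutation p of 0.056. Without WT 2 it was -0.17, and without WT 1 it was -0.35 (adjusted p = 0.87). Cdkn1c (chr7:143458339-143461050), the imprinted gene of p57, had 0.118 to 0.369 TPM in FOXO3 KO libraries and 0.179 to 0.641 TPM in WT libraries. It stayed under 1 TPM in all 11 and did not enter the main test across genes. Its exact permutation p was 0.15, and with no filter on low values its log2 fold change was -0.16 (SE 0.099, adjusted p = 0.95 in limma).

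The INK4 members were unequal in level. Cdkn2d (chr9:21288410-21291407), the gene of p19, a CDK4 and CDK6 inhibitor, had a lowest value of 58.8, a median of 78.6 and a highest value of 109 TPM in FOXO3 KO libraries, against 61.7, 68.3, 92.8, 99.0 and 144 TPM in WT libraries. Except for WT 2, the values of the groups lay in the same range, and the log2 fold change was -0.17 (SE 0.25, adjusted p = 0.99 in limma, exact permutation p = 0.57). Without WT 2 it was 0.0071. Cdkn2c (chr4:109660876-109667189), the gene of p18, was close to the minimum of 1 TPM, with 0.89, 0.945, 1.40, 1.60, 2.01 and 2.10 TPM in FOXO3 KO libraries, against 0.672, 0.719, 0.862, 1.03 and 2.29 TPM in WT libraries. No FOXO3 KO library was below the WT median, and the highest value belonged to WT 03. The log2 fold change of Cdkn2c was 0.26 (SE 0.24, adjusted p = 0.99 in limma, exact permutation p = 0.25), and without WT 03 it was 0.43. The relatives Cdkn2a and Cdkn2b stayed under 1 TPM in all libraries, with 0 to 0.607 and 0.176 to 0.885 TPM in FOXO3 KO libraries and 0.0498 to 0.481 and 0.202 to 0.886 TPM in WT libraries.

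Ccng2, Gadd45a and Btg1 were high in the same libraries in both genotypes. Ccng2 (chr5:93267257-93276231) encodes cyclin G2, an unconventional cyclin that is known as a FOXO target and rises in arrested cells. It had 31.4, 35.7, 51.3, 76.5, 104.8 and 105.4 TPM in FOXO3 KO libraries, against 52.6, 52.8, 64.9, 109 and 119 TPM in WT libraries. The 4 libraries above 100 TPM were FOXO3 KO 2, FOXO3 KO 3, WT 2 and WT 3, and the log2 fold change was -0.30 (SE 0.37, adjusted p = 0.99 in limma, exact permutation p = 0.46). With single libraries left out it was between -0.46, without FOXO3 KO 3, and -0.12, without FOXO3 KO 05.

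Gadd45a (chr6:67035096-67037457), a stress sensor induced by p53 and by FOXO factors, had 273, 357, 531, 577, 623 and 674 TPM in FOXO3 KO libraries, against 305, 438, 445, 775 and 808 TPM in WT libraries. Its 4 highest libraries were again FOXO3 KO 2, FOXO3 KO 3, WT 2 and WT 3. The log2 fold change was -0.10 (SE 0.31, adjusted p = 0.99 in limma, exact permutation p = 0.77) over all libraries. It was -0.43 among libraries numbered by 1 digit and 0.39 among those numbered by 2 digits, and the interaction of 0.81 (SE 0.56) had an adjusted p of 1.00. Between libraries of equal number, FOXO3 KO minus WT, the log2 difference for numbers 1, 2 and 3 was -0.70, -0.20 and -0.37 for Gadd45a, -0.55, -0.19 and -0.04 for Ccng2, and 0.36, 0.48 and 0.22 for Cdkn2c. The sign was mixed for Cdkn1a (-0.26, 0.013 and -0.14), Cdkn1b (0.048, -0.80 and -0.15) and Gadd45b (-0.24, 0.45 and 0.88). It was also mixed for Cdkn1c, Cdkn2d, Btg1 and Btg2. The permutation tests did not use this pairing.

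Btg1 (chr10:96617006-96622809), an antiproliferative adaptor of the CCR4-NOT deadenylase with the FOXO motif match, had 321, 358, 405, 424, 593 and 835 TPM in FOXO3 KO libraries, against 448, 464, 474, 624 and 636 TPM in WT libraries. The same 4 libraries were highest, and 4 of 6 FOXO3 KO libraries lay below the lowest WT library. The log2 fold change was -0.18 (SE 0.25, adjusted p = 0.99 in limma, exact permutation p = 0.49), with -0.35 without FOXO3 KO 3 and -0.07 without FOXO3 KO 1 as its ends when single libraries were left out. The PMN marker sum had another order, with 169300 TPM in FOXO3 KO 3, 152000 TPM in FOXO3 KO 2, 228000 TPM in WT 3 and 227700 TPM in WT 2, and its largest value in WT 08. Single PMN markers could differ from the sum. Csf3r was highest in the same 4 libraries as these genes, and the 4 highest for Cxcr2 were WT 2, WT 3, WT 08 and FOXO3 KO 3. With the PMN marker level as a covariate, the log2 fold changes were 0.26 for Ccng2, 0.36 for Gadd45a and 0.14 for Btg1 (adjusted p = 1.00 for each), and those over all libraries were -0.30, -0.10 and -0.18. All 8 PMN markers had a negative log2 fold change (median -0.46, 0 passing FDR < 0.05), and their part in these values was not tested on separated cells.

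**Figure D4:**
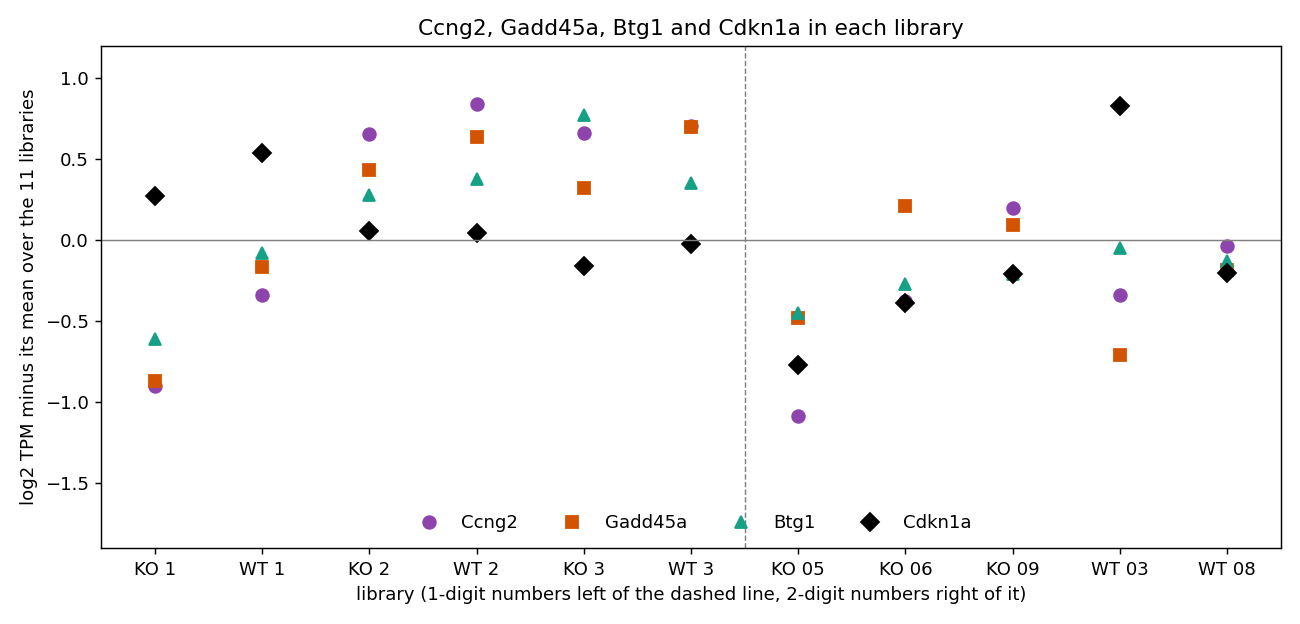
Log2 TPM of Ccng2, Gadd45a, Btg1 and Cdkn1a in each library, minus the mean of the gene over the 11 libraries, with each FOXO3 KO library numbered by 1 digit left of the WT library of that number, and the libraries numbered by 2 digits right of the dashed line. Ccng2, Gadd45a and Btg1 are all above their mean in FOXO3 KO 2 and 3 and in WT 2 and 3 and all below it in FOXO3 KO 1 and WT 1, where Cdkn1a is above its mean.

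Gadd45b (chr10:80930073-80932204), which is induced by NF-kappaB and transforming growth factor beta and shields cells from stress kinase signals, was the most abundant member. It had 589.9, 626, 763, 771, 957 and 963 TPM in FOXO3 KO libraries, against 519, 564, 573, 698 and 784 TPM in WT libraries. All 6 FOXO3 KO libraries were above the WT median of 573 TPM, and 2, FOXO3 KO 3 and 09, were above every WT library. Gadd45b averaged 778 ± 158 TPM (SD, n = 6) in FOXO3 KO and 628 ± 110 TPM (SD, n = 5) in WT PMNs, a log2 fold change of 0.30 (SE 0.18) with an adjusted p of 0.99 in limma and an exact permutation p of 0.095. The value was 0.24 to 0.39 when single libraries were left out.

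Btg2 (chr1:134075170-134079120), an antiproliferative immediate early gene that p53 also induces and holds the cyclic AMP response element match, was compared by genotype and by the numbering of the libraries. It had 31.6, 70.9, 96.3, 110, 127.8 and 128.1 TPM in FOXO3 KO libraries, against 56.4, 83.8, 100.03, 100.6 and 127 TPM in WT libraries, so the genotypes covered one range (log2 fold change -0.08, SE 0.35, adjusted p = 0.99 in limma, exact permutation p = 0.87). In libraries numbered by 2 digits it had 96.3 to 128.1 TPM, and in those numbered by 1 digit 31.6 to 110 TPM, with FOXO3 KO 1 and WT 1 lowest. That difference was 0.72 on the log2 scale (SE 0.28, adjusted p = 0.094 in limma). At FDR < 0.05 the numbering called 0 of 9 members, against 20.7% of all genes, and at an unadjusted p below 0.05 1 of 9, against 35.1% of all genes. Without FOXO3 KO 3 the adjusted p of Btg2 was 0.046 (difference 0.90), and without FOXO3 KO 1 that of Btg1 was 0.048 (difference -0.57), so these calls appeared only with that library left out. The B cell markers moved with the numbering, with a median log2 difference of 3.46 and 6 of 6 passing FDR < 0.05, and with their mean level as a covariate the Btg2 difference was 0.92 (SE 0.73, adjusted p = 0.94). With that covariate the numbering difference of Cdkn2d was 1.60 (SE 0.40, adjusted p = 0.32), against 0.21 with no covariate.

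The partners and relatives of the members also gave no call at FDR < 0.05 between the genotypes. Of all genes tested, only 31.4% had a negative log2 fold change, and the counts of positive genes in each list stand beside that share. Of 5 related arrest genes tested, 4 had a positive log2 fold change (median 0.11, FOXO3 KO over WT). Among them Gadd45g, the remaining GADD45 gene, had 28.8 to 142 TPM in FOXO3 KO libraries, against 30.2 to 82.9 TPM in WT libraries (log2 fold change 0.44, SE 0.42), and it differed by 1.19 between libraries numbered by 2 digits and by 1 digit (adjusted p = 0.0070). Tob2, a relative of the BTG genes, had 12.4 to 22.3 TPM in FOXO3 KO libraries, against 11.1 to 15.4 TPM in WT libraries (log2 fold change 0.35, SE 0.19). The kinases that p21 and INK4 proteins block were not called, with Cdk4 at 107 ± 29.3 TPM (SD, n = 6) in FOXO3 KO and 90.0 ± 38.7 TPM (SD, n = 5) in WT, and Cdk2 at 14.4 ± 1.70 TPM in FOXO3 KO and 16.3 ± 4.83 TPM in WT. Of the 6 G1 cyclins and kinases tested, 3 were positive and 3 negative (median log2 fold change 0.09).

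The retinoblastoma family and its partners, which hold cell cycle genes silent in resting cells, had 9 of 11 genes with a positive log2 fold change (median 0.08). Lin9, a subunit of the DREAM complex, had 1.21 to 2.83 TPM in FOXO3 KO libraries, against 0.688 to 1.48 TPM in WT libraries (log2 fold change 0.48, SE 0.21, adjusted p = 0.99). The 5 genes of p27 turnover tested, of 6 listed, all had a positive log2 fold change (median 0.22). Skp2 averaged under 1 TPM and was left out, and with no filter 1 of the 6 was negative. In the libraries numbered by 2 digits alone 2 of the 5 were negative (median 0.06). With the PMN marker level as a covariate 4 of the 5 were negative (median -0.05), and after quantile scaling the median was 0.07. Cks1b, the cofactor by which SKP2 binds p27, averaged 8.81 ± 2.59 TPM (SD, n = 6) in FOXO3 KO and 7.26 ± 1.99 TPM (SD, n = 5) in WT (log2 fold change 0.24, SE 0.24). Of 7 kinases on which GADD45 proteins act, 4 were positive and 3 negative (median log2 fold change 0.18), and Map3k4, a direct partner of GADD45 proteins, had a log2 fold change of 0.38 (SE 0.20). The list for CCR4-NOT, the deadenylase that BTG proteins bind, also held Pabpc1 and Prmt1, which are not its subunits. Of the 12 genes listed, 9 were positive and 3 negative (median 0.11, the median of all genes).

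Genes that share a regulator with the members gave no call either. Of 18 genes of p53 and its circuit, 13 were positive and 5 negative (median log2 fold change 0.17), close to the share of all genes, of which 31.4% were negative. Among them Aen, a p53-induced nuclease, was at 0.50 (SE 0.29) and Plk2, a stress-induced kinase, at 0.37 (SE 0.22). Of 12 other FOXO targets, 5 were positive and 7 negative (median -0.01). Sesn1, a sestrin that restrains mTORC1, had 3.04 to 9.10 TPM in FOXO3 KO libraries, against 2.51 to 7.10 TPM in WT libraries (log2 fold change 0.67, SE 0.28, adjusted p = 0.99). Pink1, a mitochondrial quality kinase, was at -0.59 (SE 0.38). Of 12 immediate early genes, the class that holds Btg2 and responds to handling, 5 were positive and 7 negative (median -0.03), and all 12 were positive within the libraries numbered by 2 digits, where 11 of 12 were negative within those numbered by 1 digit. Without FOXO3 KO 1, 11 of the 12 were positive over all libraries (median 0.21), and with the PMN marker level as a covariate 11 were positive (median 0.25).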

How the data were processed

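Total RNA of peritoneal PMNs was read on both ends of the fragments, from 6 FOXO3 KO and 5 WT mice with 1 library each. The authors deposited TPM values for 54164 genes. The submitters' processing notes name STAR 2.6.1d, kallisto 0.46.0, DESeq2, hg38 and mm10, without their roles. The table holds no counts per library, so depth and counting error are unknown. Its 6 columns of the authors' genotype comparison (a mean normalized count, a log2 fold change and its error, a test statistic, a p-value and an adjusted p-value) were not used, and 0 value columns were left without a sample or group. Libraries named by 2 digits were assigned to a genotype only.

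Genes that averaged 1 TPM or more over the 11 libraries (12195) were kept, and their log2(TPM + 1) was tested in limma 3.58.1 (R 4.3.3) with the trend option and genotype as the term. Benjamini-Hochberg adjustment covered all genes kept. Fold changes are on the log2(TPM + 1) scale, which understates those of low genes. The numbering of the libraries was tested with genotype as a covariate, and as an interaction with it. P-values measure the spread between libraries, each of 1 mouse. In limma fits and permutation tests by genotype alone, that spread also holds differences linked to the numbering. Exact permutation tests over libraries were two-sided and unadjusted. Among libraries numbered by 1 digit, those with equal numbers deviated alike from their genotype means (r = 0.51, 0.17 and 0.41 across genes, against -0.42 to 0.089 for other pairs), so the numbers were taken to pair them. Deviations from a mean of 3 libraries cancel within a genotype, so part of this contrast is built in. For number 2 the value of 0.17 was close to the 0.089 of FOXO3 KO 3 with WT 2. Alternatives were quantile normalization, another pseudocount, other filters, the replicate block, the numbering, Xist or cell markers as covariates, each set of libraries alone, and each library left out. Members and lists were chosen with earlier results of these data known. The genes named are the members, Foxo3, up to 3 genes of a list with the smallest limma p, the 5 most like Cdkn1a, and markers or relatives set beside a member. Positions of genes are from GENCODE M21 (GRCm38), and windows at start sites are from RefSeq (GRCm38.p6). Python 3.11.15 was used for tables and figures.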

Additional observations from a re-analysis of the deposited data

Results flagged for a closer look

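Of 20 sets of values looked at, 1 held a library far from the rest of its group, about what chance gives at 1 in 20. Cdkn2c, the gene of the CDK4 and CDK6 inhibitor p18, had 2.29 TPM in WT 03, against 0.672, 0.719, 0.862 and 1.03 TPM in the other WT libraries, and FOXO3 KO libraries reached 2.10 TPM. WT 03 was also the library with the most Cdkn1a (127 TPM) and the largest sum of macrophage markers (973 TPM).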

How the results depend on the processing

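No growth arrest gene passed FDR < 0.05 between the genotypes in any alternative. Cdkn1a, Cdkn1b, Cdkn2c and Gadd45b kept their sign in all alternatives that gave them a value. Between single libraries of equal number, however, Cdkn1a, Cdkn1b and Gadd45b changed sign. The covariates from cell markers were chosen after seeing the data. With the PMN marker level, Cdkn2d was at 0.0068, Ccng2 at 0.26, Gadd45a at 0.36, Btg1 at 0.14 and Btg2 at 0.23. In the libraries numbered by 2 digits alone Gadd45a was at 0.39 and Btg2 at 0.044, and with Xist as a covariate Btg2 was at 0.0074. Cdkn1a was at -0.50 after quantile scaling (adjusted p = 1.00) and at -0.60 with the PMN marker level (adjusted p = 1.00), both with an unadjusted limma p under 0.05, as had the fits without FOXO3 KO 1 or without WT 08. With single libraries left out, Cdkn2d ranged over -0.30 to 0.0071, Gadd45a over -0.29 to 0.061 and Btg2 over -0.25 to 0.20. In another fit, numbers 1 to 3 were each a replicate block and the libraries numbered by 2 digits were a further one. The log2 fold change of Cdkn1a was then -0.41 (adjusted p = 0.75), and the block changed no call. The block lowered the SE of Btg2 from 0.35 to 0.19, of Ccng2 from 0.37 to 0.21 and of Gadd45a from 0.31 to 0.21. Part of this came with the numbering, which alone as a covariate gave 0.28 for Btg2, 0.34 for Ccng2 and 0.29 for Gadd45a. The SE of Cdkn1a went from 0.23 to 0.22, and that of Gadd45b rose from 0.18 to 0.19. The 9 members had a median of -0.04 without WT 2.

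The count of genes higher between the genotypes was 2 in the libraries numbered by 1 digit alone, and leaving out single libraries gave 0 to 1 higher and 0 to 1 lower. The numbering called 1019 genes higher and 1506 lower in the libraries numbered by 2 digits. It called 7 higher and 15 lower with the B cell marker level as a covariate, 599 higher at a mean of at least 5 TPM, and 1595 higher after quantile scaling. Without single libraries these were 736 to 1072 higher and 673 to 2875 lower, with 0 to 1 growth arrest genes among them. With the B cell covariate the numbering difference of Cdkn1a was 0.28, of Ccng2 0.88, of Gadd45a 0.11 and of Btg1 0.15, against -0.22, -0.57, -0.38 and -0.39 without it. Summed B cell markers did not overlap between the libraries numbered by 2 digits and by 1 digit. That covariate and the numbering can therefore hardly be told apart. The SE of the Cdkn1a numbering difference was 0.54 in that fit, against 0.22 without the covariate. The interaction called 1 gene higher at 5 TPM, 2 higher and 2 lower with a pseudocount of 0.1, and 6 higher and 14 lower with no filter, against 0 to 1 higher and 0 to 2 lower without single libraries. The cause of these changes was not tested. Depth is unknown, so the precision of low members such as Cdkn1c and Cdkn2c cannot be given.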

Other observations

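The proliferation genes, which growth arrest proteins hold down, gave no call between the genotypes. All 21 tested, among them Mki67 and the MCM helicase subunits, had a positive log2 fold change over the 11 libraries, with a median of 0.23 against 0.11 for all genes, and 0 of 21 passed limma's FDR < 0.05 or an unadjusted p of 0.05. Of all genes tested, 31.4% were negative. Mki67 had 4.50 to 11.7 TPM in FOXO3 KO libraries, against 3.73 to 11.3 TPM in WT libraries, with FOXO3 KO 05, FOXO3 KO 06 and WT 1 among the highest. Mcm4 averaged 7.69 ± 2.77 TPM (SD, n = 6) in FOXO3 KO and 5.36 ± 1.70 TPM (SD, n = 5) in WT (log2 fold change 0.44, SE 0.24, adjusted p = 0.99). The median of the 21 was 0.43 in the libraries numbered by 2 digits and 0.0073 in those numbered by 1 digit, where 9 of 21 were negative, and the medians of all genes were 0.035 and 0.20 in these parts. Without FOXO3 KO 05, the library with the most B cell transcripts (4959 TPM summed), it was 0.075 with 3 of 21 negative, and with the macrophage marker level as a covariate it was 0.077, where the median of all genes was 0.21. With the PMN marker level as a covariate it was -0.011 with 12 of 21 negative (all genes -0.0051), and after quantile scaling it was 0.10 with 3 of 21 negative (all genes 0.0095). With the B cell marker level as a covariate it was 0.14.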
